A study of Homo sapiens with 17 samples.

Results

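The expression of 10 genes of the hypoxia response and of glucose use was followed in human lung adenocarcinoma cells given back the kinase LKB1. The genes were HIF1A, EPAS1, KDM3A, BNIP3, BNIP3L, VEGFA, CA9, HK2, PDK1 and LDHA. Each was taken by its symbol, through probe sets whose platform annotation names that gene and no other. This found 9 of the 10 among 17958 genes, each with 1 probe set, and CA9 had no probe set with its symbol alone. RNA was measured on 17 arrays, 1 for each sample, from A549 and H2122, lung adenocarcinoma lines that lack functional LKB1, which STK11 encodes. Each line had been infected with a pBABE retrovirus that carried wild-type LKB1, the kinase-dead mutant K78I, or no insert (pBABE), and was kept in 1 µg/mL puromycin for 2 weeks. All cells were grown in medium with 5% serum, and no exposure to low oxygen is named. There were 3 arrays in each of the groups A549 LKB1, A549 K78I, A549 pBABE, H2122 LKB1 and H2122 K78I, and 2 in H2122 pBABE. pBABE drives its insert from the retroviral promoter rather than that of STK11, and the labels name no clones.

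Hypoxia-inducible factors pair an oxygen-sensitive alpha subunit, HIF-1 alpha (HIF1A) or HIF-2 alpha (EPAS1), with the constant partner ARNT. In oxygen, prolyl hydroxylases mark the alpha subunits for destruction through VHL, so much of their control lies in protein that an RNA measurement does not see. When stable, they bind short promoter and enhancer elements and raise genes for glucose uptake and glycolysis, blood vessel growth and removal of mitochondria. LKB1 activates AMPK, which restrains growth signalling when energy is short, and a set of related kinases.

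The constructs were checked by STK11, whose probe set reads the introduced kinase, wild type or mutant, as well as the cell's own gene. STK11 stood at 9.42, 10.23 and 9.62 on the A549 LKB1 arrays, at 10.54, 7.14 and 10.42 with K78I and at 6.88, 7.38 and 10.52 with pBABE, in log2 units. The array labelled A549 K78I replicate 2 was thus as low as empty vector, and the array labelled A549 pBABE replicate 3 as high as a construct. In H2122 it stood at 11.20 to 11.35 with LKB1, at 11.26 to 11.31 with K78I and at 6.33 and 6.22 with pBABE. For 3 H2122 arrays (pBABE replicate 2, LKB1 replicate 3 and K78I replicate 3) title and source name disagree on the construct, and the title was used. Their source names give LKB1, K78I and pBABE, in that order, and their STK11 was 6.22, 11.26 and 11.26. STK11 thus goes with the title for pBABE replicate 2 and K78I replicate 3, and cannot tell LKB1 from K78I. Fits by source name group those 2 arrays against their STK11. Relative to the line's mean, the mean of 23 cell cycle genes was -0.81 on A549 K78I replicate 2, -0.37 on A549 pBABE replicate 1 and -1.36 on H2122 pBABE replicate 2, and between -0.10 and 0.33 on the other arrays. The part of that difference in the results was not tested, and values without these controls are given where it matters. Of 6 epithelial markers 4 lay above the array's median gene on every A549 array and 6 on every H2122 array, whereas 0 of 4 endothelial markers, 0 of 5 fibroblast markers and 1 of 4 leukocyte markers (CD68) did in each line.

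The promoters of 4 of the genes are shown. EPAS1, KDM3A and HK2 carry differences called below, and BNIP3 has, after EPAS1, the largest difference between lines. BNIP3L is also called below, but its promoter was not included, so the genes shown are not all of those called. The sequences are from RefSeq (GRCh38.p14), 250 bases before to 50 after a gene start, 5′ to 3′ on the gene's strand. Capitals mark ACGTG or GCGTG, the core letters that hypoxia-inducible factors bind, searched on both strands, so that the reverse complements CACGT and CACGC are also in capitals. CACGTG holds ACGTG on each strand and counts as 2 sites. EPAS1 spans chr2:46297157-46297456 on the plus strand and holds 1 site. KDM3A spans chr2:86441121-86441420 on the plus strand and holds 1. HK2 spans chr2:74833877-74834176 on the plus strand and holds 3. KDM3A and HK2 each have a second window at another start, which is not printed and holds 1 site for KDM3A and 6 for HK2; the first window is shown. BNIP3 spans chr10:131981874-131982173 on the minus strand and holds 6. Of 35116 promoter windows of 300 bases, 48.4% hold at least 1 such site, 21.4% ACGTG and 36.5% GCGTG, so a match describes the letters alone.
EPAS1: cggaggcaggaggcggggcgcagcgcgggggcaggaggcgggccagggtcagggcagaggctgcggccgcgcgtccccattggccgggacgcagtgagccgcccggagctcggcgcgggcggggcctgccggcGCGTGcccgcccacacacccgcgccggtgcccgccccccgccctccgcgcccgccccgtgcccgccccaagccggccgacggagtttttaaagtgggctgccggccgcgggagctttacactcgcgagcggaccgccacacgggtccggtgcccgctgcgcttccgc
KDM3A: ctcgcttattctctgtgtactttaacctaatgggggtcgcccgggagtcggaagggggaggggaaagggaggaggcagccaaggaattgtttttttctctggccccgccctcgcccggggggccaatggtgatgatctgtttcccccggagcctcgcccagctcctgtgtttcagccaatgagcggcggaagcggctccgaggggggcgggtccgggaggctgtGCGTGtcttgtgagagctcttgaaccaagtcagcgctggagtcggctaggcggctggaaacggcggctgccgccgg
HK2: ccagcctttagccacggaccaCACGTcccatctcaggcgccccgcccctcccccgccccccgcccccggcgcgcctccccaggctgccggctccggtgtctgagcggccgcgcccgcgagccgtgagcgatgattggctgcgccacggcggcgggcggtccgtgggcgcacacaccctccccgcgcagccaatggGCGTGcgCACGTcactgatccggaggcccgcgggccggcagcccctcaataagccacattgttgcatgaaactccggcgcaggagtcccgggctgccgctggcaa
BNIP3: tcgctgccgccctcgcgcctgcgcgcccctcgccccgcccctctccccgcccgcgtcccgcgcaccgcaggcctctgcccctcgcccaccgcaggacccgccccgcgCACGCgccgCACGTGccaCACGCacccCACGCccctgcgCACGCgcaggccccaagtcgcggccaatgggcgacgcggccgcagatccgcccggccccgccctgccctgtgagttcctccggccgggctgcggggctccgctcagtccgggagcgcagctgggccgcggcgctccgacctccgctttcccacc

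LKB1 was set against the mean of its K78I and pBABE groups within each line, by limma across all 17958 genes, and a gene was called when its adjusted p was under 0.05. With LKB1, A549 cells had less EPAS1 and more KDM3A and BNIP3L RNA, which made 3 of the 9 genes called (2 higher, 1 lower), against 8.44% of all genes (5.49% higher and 2.95% lower). H2122 cells had less HK2 with LKB1, 1 of 9 genes called, against 7.28% of all genes (4.99% higher and 2.29% lower). At an unadjusted p under 0.05 there were 6 of the 9 in A549 and 3 in H2122, against 3908 and 3461 of the 17958 genes. The median difference over the 9 genes was 0.34 log2 units in A549, against -0.02 over all genes, and -0.06 in H2122, against -0.04.

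**Figure D1:**
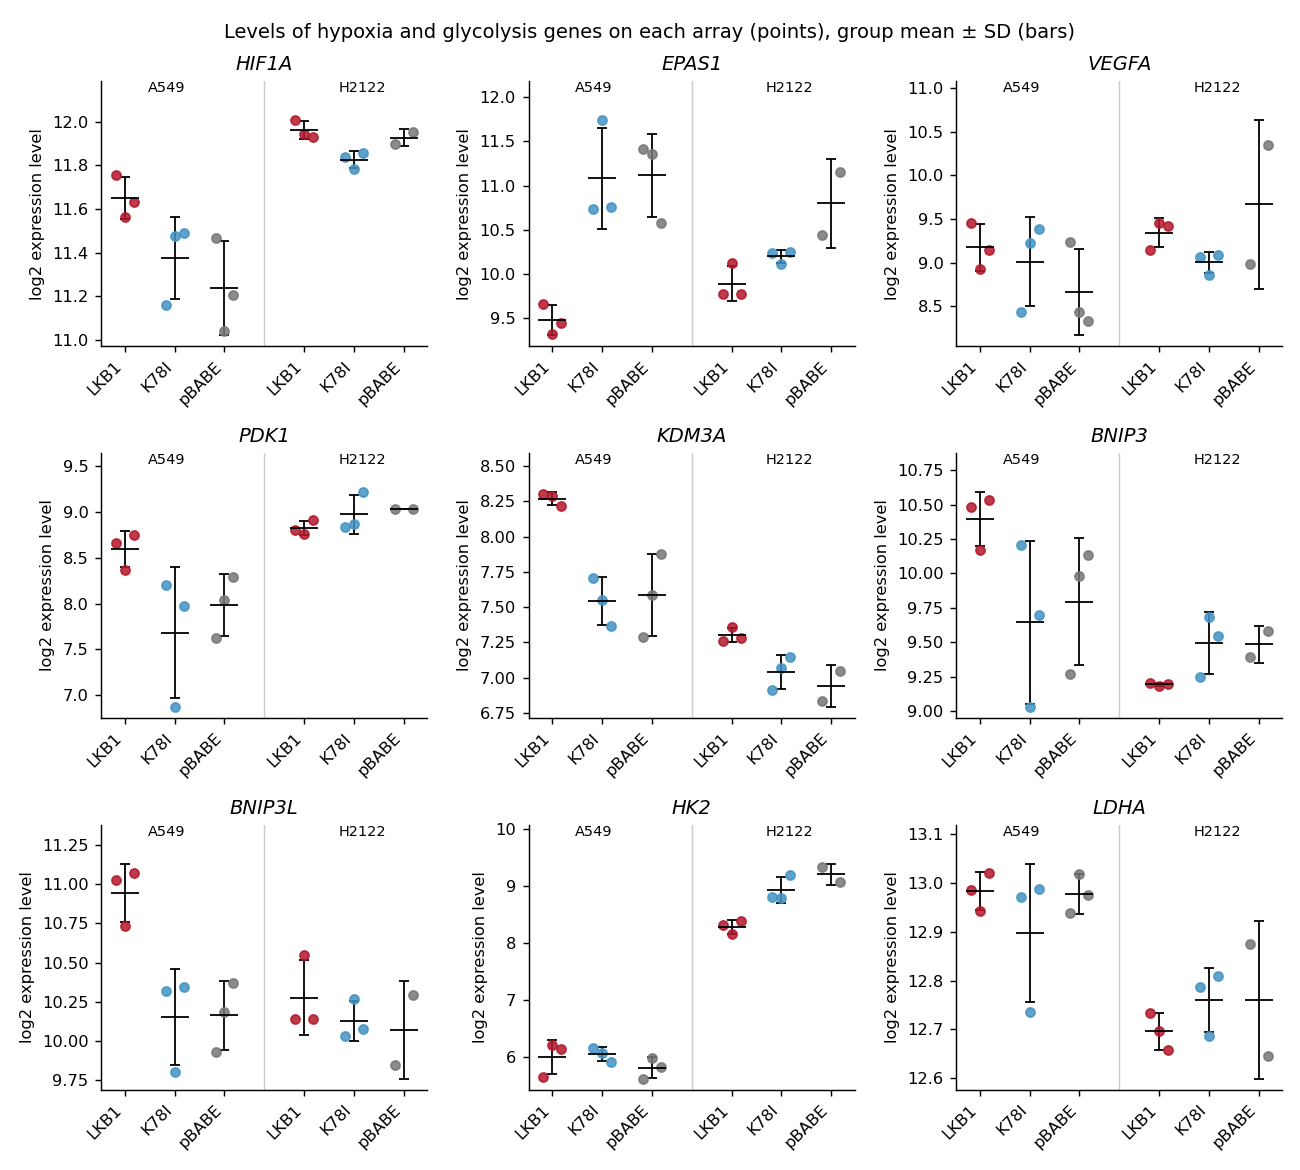
Log2 expression level of the 9 genes (vertical axes, in log2 units) on each of the 17 arrays, by line and construct, where a point is an array and bars give the group's mean and SD. EPAS1 sits between 9.32 and 9.66 on the 3 A549 LKB1 arrays, under all 6 A549 controls, and HK2 sits between 8.15 and 8.38 on the H2122 LKB1 arrays, under all 5 H2122 controls.

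EPAS1, the HIF-2 alpha subunit, best known from blood vessel and lung cells, gave the largest difference of the 9 genes in A549. Its level was 9.66, 9.32 and 9.44 in LKB1 cells, against 10.74, 11.74 and 10.76 in K78I cells and 11.42, 11.36 and 10.57 in pBABE cells. All 3 LKB1 arrays lay below all 6 controls, and the LKB1 arrays were much closer together than the controls. EPAS1 fell by 1.62 ± 0.23 log2 units (SE, 95% interval -2.12 to -1.12, limma adjusted p = 0.000468), so that it was 3.08-fold lower with LKB1. In H2122 it was 9.77, 10.12 and 9.78 with LKB1, against 10.23, 10.11 and 10.25 with K78I and 10.45 and 11.15 with pBABE. Here the groups touched, since LKB1 replicate 2 was above K78I replicate 2, and the difference of -0.61 ± 0.24 did not pass (interval -1.13 to -0.09, limma adjusted p = 0.173). The highest control in each line, A549 K78I replicate 2 and H2122 pBABE replicate 2, was also among the arrays with low cell cycle genes, and the array labelled A549 pBABE replicate 1 with 11.42 was the third of these. Without those 3 arrays the A549 difference was -1.38 (limma adjusted p = 0.000212) and the H2122 difference -0.43 (limma adjusted p = 0.129). Without the 2 A549 arrays whose STK11 went against their label, the differences were -1.59 in A549 and -0.61 in H2122, and both passed (limma adjusted p = 1.67e-05 and 0.018).

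HIF1A, the HIF-1 alpha subunit found in most cell types, was higher on every A549 LKB1 array than on any control, without passing the test. It stood at 11.75, 11.56 and 11.63 with LKB1, against 11.16, 11.48 and 11.49 with K78I and 11.47, 11.04 and 11.21 with pBABE. The lowest LKB1 array was only slightly above the highest K78I array. The difference was 0.34 ± 0.10 log2 units (SE, interval 0.12 to 0.57, limma adjusted p = 0.0567). It passed when A549 pBABE replicate 1, K78I replicate 2 or K78I replicate 3 was left out alone (limma adjusted p = 0.0248, 0.0482 and 0.0471). Without the 3 controls low in cell cycle genes it was 0.43 and passed (limma adjusted p = 0.0133). In A549 HIF1A passed under 7 of 29 alternative fits, with differences from 0.27 to 0.43 and a limma adjusted p of up to 0.236. In H2122, HIF1A ranged from 11.93 to 12.01 with LKB1, against 11.78 to 11.86 with K78I and 11.90 and 11.95 with pBABE. These ranges overlapped, and the difference was 0.09 ± 0.11 (interval -0.15 to 0.32, limma adjusted p = 0.773). In A549 the subunits thus stood on opposite sides of their controls, and EPAS1 alone passed.

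KDM3A, a histone demethylase that removes methyl groups from histone H3 lysine and a known HIF target, rose in A549. Its level was 8.30, 8.29 and 8.21 with LKB1, against 7.71, 7.55 and 7.37 with K78I and 7.29, 7.59 and 7.88 with pBABE. The groups were well apart, with no control above 7.88. The rise was 0.71 ± 0.12 log2 units (SE, interval 0.45 to 0.96, limma adjusted p = 0.00169), or 1.63-fold. In H2122 it was 7.26, 7.36 and 7.28 with LKB1, against 6.91, 7.07 and 7.15 with K78I and 6.83 and 7.04 with pBABE. Again every LKB1 array was above every control, but the difference of 0.31 ± 0.12 did not pass (interval 0.04 to 0.58, limma adjusted p = 0.172). KDM3A was 1 of 9 genes with LKB1 arrays wholly above the controls in H2122, against 8.54% of all genes. In A549 there were 4 of 9 (HIF1A, PDK1, KDM3A and BNIP3L), against 8.46% of all genes.

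BNIP3L and BNIP3 encode related receptors of the outer mitochondrial membrane that bind LC3-type proteins and lead mitochondria into autophagy. BNIP3L stood at 11.03, 10.73 and 11.08 in A549 with LKB1, against 10.32, 9.80 and 10.35 with K78I and 9.93, 10.19 and 10.37 with pBABE. Every LKB1 array lay above every control, by the least for LKB1 replicate 2. BNIP3L rose by 0.79 ± 0.16 log2 units (SE, interval 0.45 to 1.13, limma adjusted p = 0.00532), or 1.73-fold. In H2122 it was 10.14, 10.55 and 10.14 with LKB1, against 10.03, 10.27 and 10.07 with K78I and 9.85 and 10.29 with pBABE. LKB1 replicate 2 was above all of these and the other two LKB1 arrays were among the controls. The difference was 0.18 ± 0.16 (interval -0.17 to 0.53, limma adjusted p = 0.648).

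BNIP3 stood at 10.48, 10.17 and 10.53 in A549 with LKB1, against 10.21, 9.03 and 9.69 with K78I and 9.27, 9.98 and 10.13 with pBABE. K78I replicate 1 was above LKB1 replicate 2, so the groups overlapped. The difference was 0.68 ± 0.22 log2 units (SE, interval 0.20 to 1.15, limma adjusted p = 0.0767). It passed without K78I replicate 1 or without pBABE replicate 3 (limma adjusted p = 0.0163 and 0.0484), and without the 2 arrays whose STK11 went against their label (0.61, limma adjusted p = 0.046). Without the controls low in cell cycle genes, which include the 2 lowest BNIP3 values in A549, it shrank to 0.39 (limma adjusted p = 0.108). In A549 BNIP3 passed under 4 of 29 alternative fits, with a limma adjusted p of up to 0.271. In H2122 BNIP3 was 9.20, 9.18 and 9.20 with LKB1, against 9.25, 9.69 and 9.55 with K78I and 9.39 and 9.58 with pBABE. Here the LKB1 arrays were nearly equal and lay under every control, the other side from A549. This difference of -0.30 ± 0.23 did not pass (interval -0.79 to 0.20, limma adjusted p = 0.573). BNIP3 and HK2 were the 2 of 9 genes with LKB1 arrays wholly below the controls in H2122, against 8.82% of all genes, and EPAS1 was the 1 of 9 in A549, against 6.65%.

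HK2, the hexokinase that traps glucose in many tumour cells by phosphorylating it, fell in H2122. It stood at 8.31, 8.15 and 8.38 with LKB1, against 8.80, 8.79 and 9.19 with K78I and 9.33 and 9.07 with pBABE. All LKB1 arrays were below all controls, and the K78I arrays reached lower than the pBABE arrays. HK2 fell by 0.79 ± 0.15 log2 units (SE, interval -1.10 to -0.47, limma adjusted p = 0.00339), so that it was 1.72-fold lower with LKB1. The difference was -0.84 without the 3 arrays with conflicting labels (limma adjusted p = 0.0329). With constructs read from the source names in place of the titles, the difference was -0.45 and did not pass (limma adjusted p = 0.372). In A549 HK2 was 5.64, 6.20 and 6.13 with LKB1, against 6.15, 6.06 and 5.91 with K78I and 5.61, 5.98 and 5.82 with pBABE. These values interleaved. They lay below the array's median gene, which was between 6.30 and 6.52, and close to or above the median of all probe sets, which was between 5.62 and 5.73. The difference was 0.07 ± 0.14 (interval -0.23 to 0.37, limma adjusted p = 0.846).

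PDK1, the kinase that shuts off pyruvate dehydrogenase and so keeps pyruvate out of mitochondria, was higher on all A549 LKB1 arrays than on any control without passing. Its level was 8.66, 8.37 and 8.75 with LKB1, against 8.20, 6.87 and 7.98 with K78I and 7.62, 8.04 and 8.29 with pBABE. The array labelled K78I replicate 2 was far below the rest. The difference was 0.76 ± 0.23 log2 units (SE, interval 0.27 to 1.25, limma adjusted p = 0.0554). It passed when any of K78I replicates 1, 2 and 3 or pBABE replicate 3 was left out alone (limma adjusted p = 0.0163, 0.0299, 0.0422 and 0.0397), with a smaller difference of 0.56 without K78I replicate 2. Without the 3 controls low in cell cycle genes it was smaller still, at 0.46, and passed (limma adjusted p = 0.0352), and without the 2 A549 arrays whose STK11 went against their label it was 0.63 (limma adjusted p = 0.00873). In A549 PDK1 passed under 8 of 29 alternative fits, and the limma adjusted p reached 0.22 among the rest. In H2122 PDK1 ranged from 8.76 to 8.91 with LKB1, against 8.83 to 9.22 with K78I and 9.03 on both pBABE arrays. The H2122 groups overlapped, with a difference of -0.18 ± 0.24 (interval -0.69 to 0.33, limma adjusted p = 0.786).

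LDHA, the lactate dehydrogenase subunit that turns pyruvate to lactate, had levels of 12.94 to 13.02 in A549 with LKB1, against 12.74 to 12.99 with K78I and 12.94 to 13.02 with pBABE. In H2122 it was 12.66 to 12.73 with LKB1, against 12.69 to 12.81 with K78I and 12.65 to 12.87 with pBABE. The groups overlapped in both lines. The differences were 0.05 ± 0.09 in A549 (SE, interval -0.14 to 0.23) and -0.06 ± 0.09 in H2122 (interval -0.25 to 0.12), with limma adjusted p of 0.83 and 0.796. No saturation calls were used.

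VEGFA, the growth factor for blood vessels, varied more among controls than between constructs. It was 9.46, 8.92 and 9.14 in A549 with LKB1, against 8.43, 9.22 and 9.38 with K78I and 9.23, 8.43 and 8.32 with pBABE. In H2122 it was 9.15, 9.46 and 9.41 with LKB1, against 9.06, 8.86 and 9.08 with K78I and 8.98 and 10.35 with pBABE. One H2122 pBABE array was higher than any other array of either line. The differences were 0.34 ± 0.28 in A549 (SE, interval -0.26 to 0.94, limma adjusted p = 0.553) and 0.01 ± 0.29 in H2122 (interval -0.61 to 0.63, limma adjusted p = 0.995). The H2122 value was set by the pBABE arrays: it was 0.35 without replicate 2, the array at 10.35, and -0.34 without replicate 1, and neither passed (limma adjusted p = 0.505 and 0.523).

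**Figure D2:**
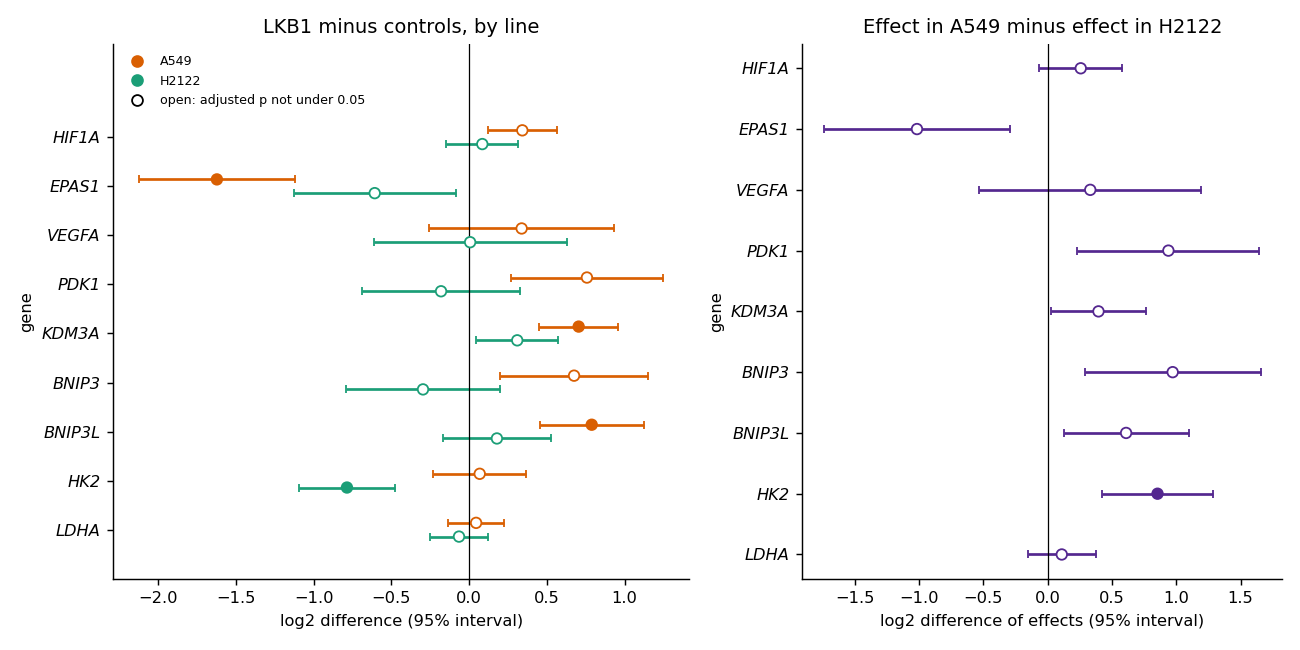
LKB1 minus the mean of K78I and pBABE for the 9 genes (horizontal axis, log2 units, with 95% intervals) in A549 and H2122, beside the difference between the lines, where filled points have a limma adjusted p under 0.05. EPAS1 at -1.62, KDM3A at 0.71 and BNIP3L at 0.79 are filled for A549, HK2 at -0.79 for H2122, and HK2 at 0.85 for the difference.

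The controls were also taken one at a time. Both comparisons use the same LKB1 arrays, so they are not independent. In A549 the same 3 genes were called against K78I (5.25% of all genes called, 3.56% higher and 1.69% lower) and against pBABE (5.5% of all genes called, 3.78% higher and 1.72% lower). EPAS1 differed by -1.60 from K78I and -1.64 from pBABE (limma adjusted p = 0.00268 and 0.0019). These values rest on the labels, against which STK11 goes on K78I replicate 2 and pBABE replicate 3. EPAS1 was 10.74 and 10.76 on the other K78I arrays and 10.57 on pBABE replicate 3, all with high STK11. On the controls with low STK11 it was 11.74 (K78I replicate 2), 11.42 and 11.36. The LKB1 arrays thus lay nearer the controls with high STK11. KDM3A differed by 0.73 and 0.68 (limma adjusted p = 0.00608 and 0.0079), and BNIP3L by 0.79 from each (limma adjusted p = 0.0191 and 0.0185). For BNIP3L the difference stayed between 0.62 and 0.80 when any of the arrays named next was left out, but its adjusted p then missed the threshold. Against K78I the call was lost without LKB1 replicate 1, K78I replicate 2 or LKB1 replicate 3 (limma adjusted p = 0.0753, 0.0882 and 0.0933), and against pBABE without pBABE replicate 1, LKB1 replicate 1, pBABE replicate 2 or LKB1 replicate 3 (limma adjusted p = 0.0973, 0.0762, 0.0617 and 0.0898). Leaving out the 2 A549 arrays whose STK11 went against their label also ended the BNIP3L call against K78I. Fitted on the A549 arrays alone, neither KDM3A (limma adjusted p = 0.0506 and 0.0546) nor BNIP3L (0.0636 and 0.0584) passed against K78I or pBABE.

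In H2122 HK2 was called against K78I (3.89% of all genes called, 2.98% higher and 0.908% lower), at -0.65, and against pBABE (5.77% of all genes called, 4.17% higher and 1.6% lower), at -0.92, with limma adjusted p of 0.0351 and 0.00641. Leaving out any of the 6 LKB1 and K78I arrays ended the call against K78I (limma adjusted p = 0.0508 to 0.202), though the difference stayed between -0.72 and -0.52. With constructs from the source names HK2 was -0.15 from K78I and -0.75 from pBABE, and neither passed (limma adjusted p = 0.981 and 0.232). EPAS1 in H2122 was -0.31 from K78I and -0.91 from pBABE, and neither passed (limma adjusted p = 0.679 and 0.106). Between K78I and pBABE limma called 0 of the 9 genes and 0% of all genes in each line. Of the 9, 0 had an unadjusted p under 0.05, against 472 and 1260 of all genes in A549 and H2122. This test also missed STK11, which was higher with K78I by 5.002 log2 units in H2122 (limma adjusted p = 0.167). STK11 was not called in A549 either, where it goes against the labels of 2 controls. The count of 0 therefore cannot tell whether K78I acts like empty vector. The K78I minus pBABE difference was -0.60 for EPAS1 in H2122 (interval -1.25 to 0.05), which a missed threshold does not make equal.

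**Figure D3:**
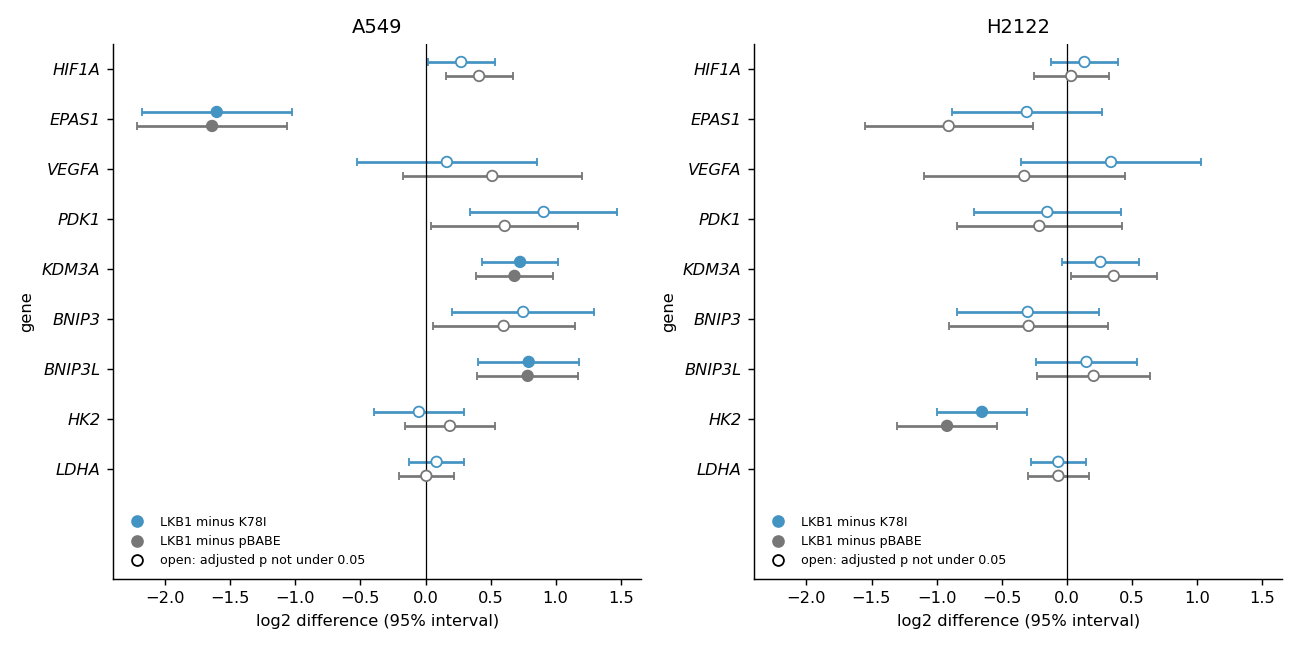
LKB1 minus K78I and LKB1 minus pBABE (horizontal axes, log2 units, with 95% intervals) for each of the 9 genes, A549 and H2122 in separate panels, filled where the limma adjusted p was under 0.05. With arrays grouped by label, both comparisons give nearly the same value for EPAS1, KDM3A and BNIP3L in A549. For EPAS1 in H2122 they are -0.31 and -0.91. In A549 STK11 goes against the labels of K78I replicate 2 and pBABE replicate 3.

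Whether the response to LKB1 differed between the lines was tested by the difference of the A549 and H2122 effects. HK2 was called, 1 of 9 genes, against 3.6% of all genes (1.63% higher and 1.98% lower). Its effect was 0.07 in A549 and -0.79 in H2122, a difference of 0.85 ± 0.20 log2 units (SE, interval 0.42 to 1.29, limma adjusted p = 0.0307). HK2 lay at 5.61 to 6.20 in A549, below the array's median gene, so a fall like that in H2122 may not be visible there. Centring each array on its median ended the call. The call was lost without A549 pBABE replicate 1 (limma adjusted p = 0.0512), without A549 LKB1 replicate 2 or 3 (0.0948 and 0.104) and without H2122 LKB1 replicate 1, 2 or 3 (0.0697, 0.0865 and 0.0597), though the difference stayed between 0.75 and 0.90 in these fits. It was also lost without the 3 arrays with conflicting labels (0.90, limma adjusted p = 0.0916) and with constructs from the source names (0.52, limma adjusted p = 0.431).

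The other genes did not pass this test, though some intervals lay to one side of 0. BNIP3 differed by 0.97 ± 0.32 (SE, interval 0.29 to 1.66, limma adjusted p = 0.133) and PDK1 by 0.94 ± 0.33 (interval 0.23 to 1.65, limma adjusted p = 0.166). For both, the effect was positive in A549 and negative in H2122, and neither effect passed in either line. The BNIP3 difference passed without A549 K78I replicate 1 (1.11, limma adjusted p = 0.0373), and the PDK1 difference without the 2 A549 arrays whose STK11 went against their label (0.81, limma adjusted p = 0.0248). EPAS1 differed by -1.02 ± 0.34 (interval -1.74 to -0.29, limma adjusted p = 0.139). It passed without those 2 arrays (-0.99, limma adjusted p = 0.016) and without the 3 controls low in cell cycle genes (-0.95, limma adjusted p = 0.04). Of 28 alternative fits, BNIP3 and PDK1 each passed this test under 2 and EPAS1 under 3. BNIP3L differed by 0.61 and KDM3A by 0.40 (limma adjusted p = 0.192 and 0.285), and HIF1A, VEGFA and LDHA by 0.26, 0.33 and 0.11 (limma adjusted p = 0.481, 0.812 and 0.789). The calls of KDM3A and BNIP3L in A549 are therefore not shown to be particular to that line.

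The lines also differed from each other in level. Averaged over the constructs, 6 of the 9 genes differed between A549 and H2122 in limma, against 48.1% of all genes (24.6% higher and 23.5% lower in A549). HK2 was lower in A549, with a difference of -2.86 ± 0.10 log2 units (SE, limma adjusted p = 1.69e-12) or 7.24-fold. PDK1 and HIF1A were also lower in A549, with differences of -0.86 and -0.48 (limma adjusted p = 0.000325 and 4.35e-05). KDM3A was higher in A549 by 0.70, BNIP3 by 0.55 and LDHA by 0.21 (limma adjusted p = 3.59e-06, 0.00731 and 0.00708). The LDHA call was lost without the 3 arrays with conflicting labels and with quantile normalization (limma adjusted p = 0.0652 and 0.0675). With 1 line on each side, the test compares these lines only. EPAS1, BNIP3L and VEGFA differed by 0.26, 0.26 and -0.39 and did not pass (limma adjusted p = 0.209, 0.0581 and 0.117).

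For each gene the one with the most similar course over the 17 arrays was found by Pearson's r after centring each line on its own mean. The most alike was CARD14 for EPAS1 (r = 0.973), VASH1 for BNIP3L (0.969), MAP3K21 for PDK1 (0.969), TPD52 for BNIP3 (0.939), ANKRA2 for VEGFA (0.937), CRIP2 for KDM3A (0.934), UGT2A3 for HIF1A (0.927), PSMA2 for LDHA (0.889) and IL33 for HK2 (0.879). These are the highest of 17958 genes and describe the arrays, which share constructs within each group.

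The rest of the pathway was read from lists of its other genes. Of 11 regulators of the factors, 1 was called in A549, higher, against 5.49% of all genes called higher. In H2122 limma called 0 of them (2 at an unadjusted p under 0.05), against 7.28% of all genes. The A549 gene was ARNT2, a partner of alpha subunits expressed in few tissues, at 0.70 ± 0.19 in A549 (SE, limma adjusted p = 0.0301), and the call was lost without any 1 of 4 A549 arrays (limma adjusted p = 0.0619 to 0.133), with a replicate block (0.084) and with arrays centred on their medians (0.0512). ARNT, the common partner, was 0.04 and VHL 0.12 in A549. EGLN3, a prolyl hydroxylase that hypoxia induces, was 1.37 and EGLN1, the main one in oxygen, was -0.50 in A549, and neither passed (limma adjusted p = 0.0721 and 0.279).

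Of 26 other hypoxia targets measured, 3 were called higher and 1 lower in A549 (all genes 5.49% and 2.95%), and 7 higher and 1 lower in H2122 (all genes 4.99% and 2.29%). Their median differences were 0.08 and 0.23. In A549 the glucose transporter SLC2A1 rose by 1.16 ± 0.14 (SE, limma adjusted p = 9.44e-05), and P4HA2, a collagen prolyl hydroxylase, by 0.65 (limma adjusted p = 0.0179). The P4HA2 call was lost without LKB1 replicate 1, 2 or 3 (limma adjusted p = 0.0804, 0.0514 and 0.0823). NDRG1, at 0.90, and STC2, at -1.41, were called too (limma adjusted p = 0.0461 and 0.0396). The NDRG1 call was lost without any 1 of 11 arrays (limma adjusted p = 0.0538 to 0.266) and that of STC2 without any 1 of 10 (0.0512 to 0.173). H2122 arrays are among both sets. Without them the A549 differences stay at 0.90 and -1.41, and only the shared spread and the adjustment change. In H2122 TMEM45A rose by 3.37 ± 0.13 (SE, limma adjusted p = 2.51e-09), PFKFB4 by 1.38, P4HA2 by 1.16 and ADM by 1.02 (limma adjusted p = 0.000774, 0.000425 and 0.0499). ADM, the vasodilator peptide adrenomedullin, lost its call without any 1 of 11 arrays (limma adjusted p = 0.0507 to 0.224). A549 arrays are among these 11, and without them the ADM difference stays at 1.02. Without the 3 arrays with conflicting labels it was 0.62. With constructs read from the source names limma called 1 gene of all in H2122, and 0 of the H2122 calls of any list were kept. Between lines, 1 of the 26 was called higher and 5 lower (all genes 1.63% and 1.98%). TMEM45A differed by -3.23, CA12, a carbonic anhydrase related to CA9, by -1.29, and SLC2A1 by 0.92 (limma adjusted p = 1.66e-07, 0.0127 and 0.0186). The SLC2A1 difference was lost without A549 LKB1 replicate 2 or 3 or H2122 LKB1 replicate 2 or 3 (limma adjusted p = 0.0568, 0.0553, 0.0569 and 0.0521). Without the 3 arrays with conflicting labels the SLC2A1 and CA12 differences did not pass (limma adjusted p = 0.077 and 0.0919), and TMEM45A did.

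**Figure D4:**
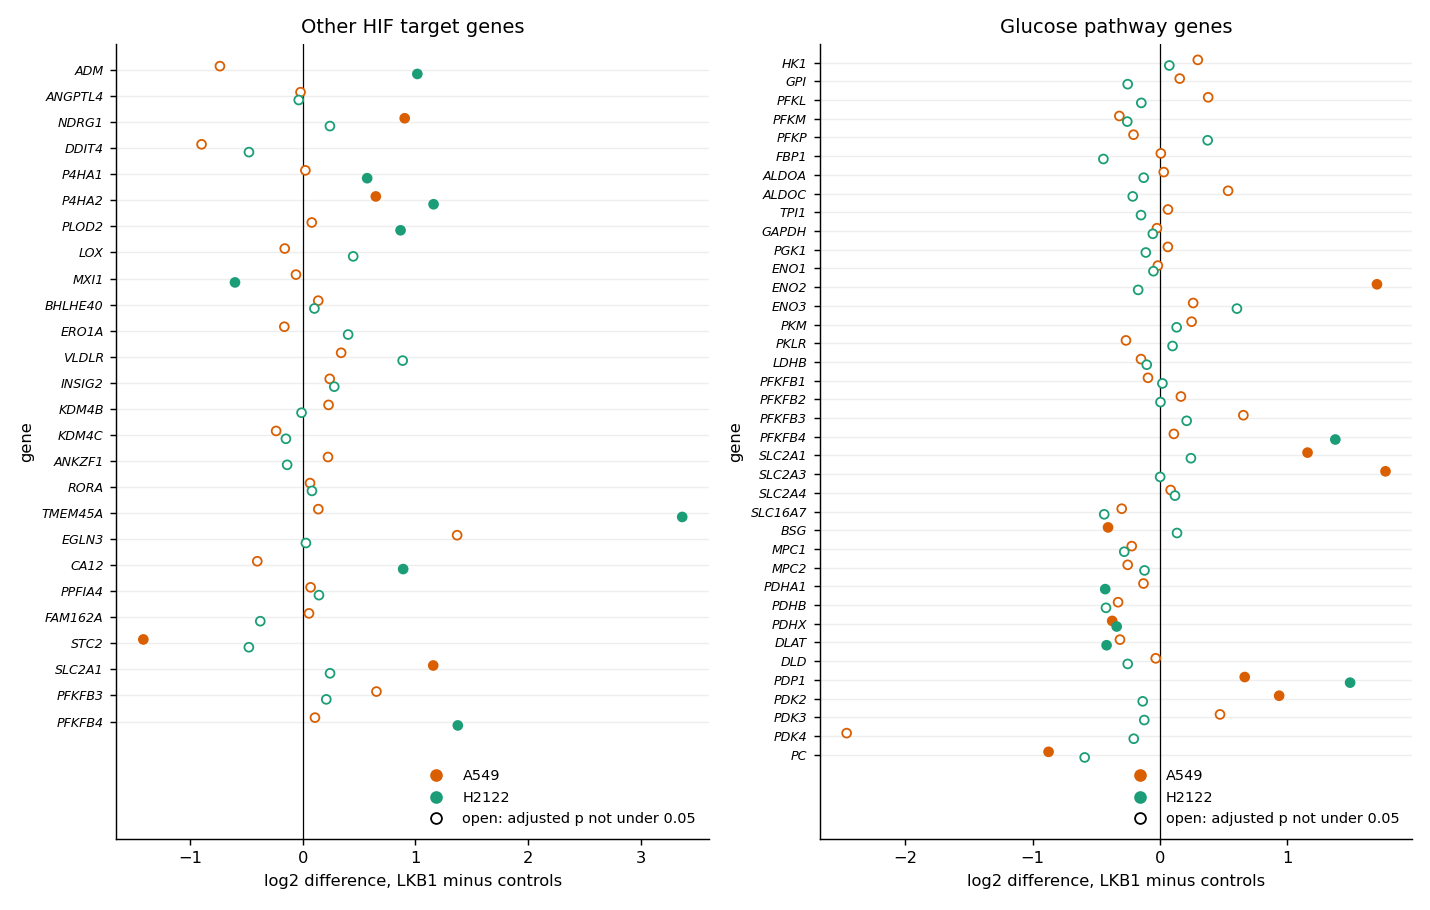
LKB1 minus the mean of both controls in A549 and in H2122 (log2 units) for other hypoxia targets (left) and genes of the glucose pathway (right), A549 in orange and H2122 in green, where each point is a gene and filled points have a limma adjusted p under 0.05. Most points lie near 0. The filled points include SLC2A3 at 1.77, ENO2 at 1.70, SLC2A1 at 1.16 and STC2 at -1.41 in A549. In H2122 they include TMEM45A at 3.37, PDP1 at 1.49 and PFKFB4 at 1.38.

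Of 21 other glycolytic enzymes, 1 was called in A549 and 1 in H2122, both higher, against 5.49% and 4.99% of all genes called higher. ENO2, the enolase of neurons and of many tumours, rose by 1.70 ± 0.22 in A549 (SE, limma adjusted p = 0.000215), and PFKFB4, which makes the activator of phosphofructokinase, was the H2122 gene. PGK1, ALDOA and GAPDH were 0.06, 0.03 and -0.02 in A549. Of 7 carriers of glucose, pyruvate and lactate, SLC2A1 and SLC2A3 rose and BSG, the chaperone of lactate transporters, fell in A549. There 5.49% of all genes were called higher and 2.95% lower. In H2122 limma called 0 of the 7 (2 at an unadjusted p under 0.05), against 7.28% of all genes. SLC2A3 was higher by 1.77 ± 0.42 (SE, limma adjusted p = 0.0162), and its call was lost without LKB1 replicate 1 or 3 (limma adjusted p = 0.122 and 0.119). BSG fell by 0.41 (limma adjusted p = 0.0124), a call lost without LKB1 replicate 3 (limma adjusted p = 0.0711). With the A549 arrays fitted alone, SLC2A3, BSG and P4HA2 also missed the threshold, at the same differences.

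Around pyruvate dehydrogenase, the target of PDK1, 2 of 10 genes were called higher and 2 lower in A549 (8.44% of all genes called in either direction), and 1 higher and 3 lower in H2122 (7.28%). PDHX, a structural subunit, fell in both, by 0.38 ± 0.08 in A549 and by 0.34 in H2122 (limma adjusted p = 0.00607 and 0.0155). PDP1, the phosphatase that opposes PDK1, rose by 0.67 in A549 and by 1.49 ± 0.16 in H2122 (SE, limma adjusted p = 0.0124 and 3.77e-05). PDHX in H2122 was lost without LKB1 replicate 1 or 3 (limma adjusted p = 0.0793 and 0.0628), and PDP1 in A549 without LKB1 replicate 1 (limma adjusted p = 0.0615). Without the 3 arrays with conflicting labels the PDHX difference in H2122 was -0.31. Of 10 partners in the removal of mitochondria, PINK1, the kinase that marks damaged mitochondria, rose by 0.85 ± 0.18 in A549 (SE, limma adjusted p = 0.00847), and by 0.42 with the mean of its probe sets in place of the brightest (limma adjusted p = 0.0482). OPTN, an autophagy adaptor, rose by 0.91 ± 0.14 in H2122 (SE, limma adjusted p = 0.000873). PINK1 and OPTN were each the 1 of 10 called in their line, against 5.49% and 4.99% of all genes called higher.

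Of 15 paralogs of the genes, 1 was called higher and 1 lower in A549, and 1 higher and 0 lower in H2122, against the same 8.44% and 7.28% of all genes. VEGFC, the growth factor of lymphatic vessels, fell by 2.35 ± 0.39 in A549 (SE, limma adjusted p = 0.0015), and PDK2 was higher by 0.94 (limma adjusted p = 0.0391), a call lost without any 1 of 9 arrays (limma adjusted p = 0.0508 to 0.176). H2122 arrays are among those 9, and without them the PDK2 difference stays at 0.94. CA12 rose by 0.89 ± 0.19 in H2122 (SE, limma adjusted p = 0.00869) and lost its call without LKB1 replicate 2 (limma adjusted p = 0.0591). Without the 3 arrays with conflicting labels the CA12 difference was 0.95. The VEGFC effect differed between the lines by -3.17 (limma adjusted p = 0.00569), a call lost without the 3 arrays with conflicting labels (limma adjusted p = 0.0809). HK1, the hexokinase of most tissues, was 0.30 in A549 (limma adjusted p = 0.196), and PDK4, the kinase of fasting, was -2.46 there (limma adjusted p = 0.0642). KDM3B and JMJD1C, relatives of KDM3A, were 0.09 and -0.07. Of 5 receptors for the VEGF family, NRP2, which binds VEGFC, rose by 1.96 ± 0.20 in A549 (SE, limma adjusted p = 2.62e-05), an effect that differed from H2122 by 1.61 (limma adjusted p = 0.00633). NRP1 was called in H2122 at 0.67 (limma adjusted p = 0.036), a call lost without any 1 of 6 arrays (limma adjusted p = 0.052 to 0.177). A549 LKB1 replicate 3 is among those 6, and without it the NRP1 difference stays at 0.67. NRP2 and NRP1 were each the 1 of 5 called in their line, against 5.49% and 4.99% of all genes called higher.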

How the data were processed

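The deposited values are levels on the log2 scale. Per the submitters' processing notes, the authors ran RMA (Affymetrix Expression Console 1.1). It makes the arrays' distributions alike, so a shift of most genes cannot be seen. Labelling began from 130 ng of RNA, per the labels' protocols. The annotation's build was not given in the sources used here. The number of arrays limits precision, and the labels do not say whether replicates were separate cultures, so p-values measure the spread between samples. Of 33297 probe sets, 19181 had 1 gene symbol, 2055 had several and 12061 were unnamed here. The brightest probe set was kept for 895 genes with several.

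Groups came from the titles. limma 3.58.1 in R 4.3.3 was fitted over 6 groups (11 residual degrees of freedom, 3.8 from the prior) with Benjamini-Hochberg adjustment, and it was tested on simulated data. The members and lists were chosen with earlier results of these data known. Named were the 10 genes, their paralogs, STK11, up to 4 called genes of each list with the largest differences, list genes with their values, and the gene most alike to each member. Alternatives were a replicate block, other label fields, leaving out arrays, dropping the dimmest 30% of genes, centring arrays on their medians, quantile normalization, the mean of probe sets, a trended prior, array weights and separate lines. The study's tumour data were not analysed here.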

Additional observations from a re-analysis of the deposited data

Results flagged for a closer look

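VEGFA on H2122 pBABE replicate 2 stood apart from the other H2122 controls. Its gap to the nearest of the 5 controls was 0.851 of their range, with a level of 10.35 against 8.86 to 9.08 on the rest. LDHA on the array labelled A549 K78I replicate 2 stood apart in the same way, with a gap of 0.716 of the range of the 6 A549 controls and a level of 12.74 against 12.94 to 13.02 on the rest. Both arrays were low in cell cycle genes, and the part of that in these values was not tested. Of 18 such gap tests chance would give about 1 in 20.

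The LKB1 effect differed between the lines by the test of the difference for HK2, at 0.854 log2 units (A549 minus H2122). Among the list genes it was higher in A549 for ENO2 (1.88), NRP2 (1.61) and SLC2A1 (0.916). It was lower in A549 for TMEM45A (-3.23), VEGFC (-3.17), ADM (-1.75), CDH1 (-1.63), CA12 (-1.29), PFKFB4 (-1.27), PLOD2 (-0.788) and BSG (-0.541). CDH1 is an epithelial marker. Of these, NRP2 kept its call under all 28 alternatives. The call was lost under 18 of the 28 for PLOD2, 15 for BSG, 11 for ADM and 10 for CDH1. It was lost under 9 for HK2, 8 for PFKFB4 and 5 for SLC2A1. For VEGFC and CA12 it was lost under 2 each, and for ENO2 and TMEM45A under 1 each.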

How the results depend on the processing

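The A549 calls of EPAS1, KDM3A and BNIP3L, and of SLC2A1, ENO2, VEGFC, NRP2, PINK1 and PDHX among the list genes, held under all 29 alternatives, and HK2 in H2122 under 28 of 29. Among the 29 are fits that alter only arrays of the other line. These cannot move the difference, only the shared spread and the adjusted p. Leaving out 1 array at a time gave 3 to 5 of the 9 genes called in A549, 1 in H2122 and 0 to 2 for the difference between lines, and 715 to 1924, 755 to 1712 and 310 to 870 of all genes (1515, 1308 and 647 with every array). The count of all genes changed by over 1.5 times in A549 without A549 LKB1 replicate 1 (844) or 3 (715), in H2122 without H2122 LKB1 replicate 1, 2 or 3 (789, 868 and 755), and for the difference without A549 LKB1 replicate 2 or 3 (421 and 310) or H2122 LKB1 replicate 1, 2 or 3 (381, 427 and 340). Counts below are for A549, H2122 and the difference, in that order, unless named. Same-numbered arrays did not pair in A549 (correlations -0.64 to 0.35 over 9 pairs, 3 of 9 arrays most alike to their own number; H2122 0.06 to 0.42 over 7 pairs, 6 of 8 arrays). With a replicate block 1448, 1255 and 628 genes and 3, 1 and 1 of the 9 were called. Without the 2 arrays with STK11 against the label 5, 2 and 3 of the 9 were called, and 1758, 1743 and 894 of all genes. Without the 3 controls low in cell cycle genes 5 of the 9 were called in A549, 2 for the difference, and 2345 of all genes in H2122. Array weights gave 6, 2 and 5 of the 9 and 3844, 2264 and 1706 genes. The dim filter gave 5 of the 9 and 1518 of all genes in A549, and A549 fitted alone 875 genes. With groups from the source names 0 of the 9 were called in H2122 and for the difference, and 1 and 175 genes. Those groups place an array with STK11 at 6.22 under LKB1 and 1 with STK11 at 11.26 under pBABE. Without the conflicting labels 0 of the 9 were called for the difference, and 422 genes in H2122 and 209 for the difference. Median centring gave 0 of the 9 for the difference, and turned the split in A549 to 774 higher and 718 lower, against 985 and 530, and in H2122 to 780 and 508, against 896 and 412. The causes were not tested.

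Signs turned only for values that did not pass under either setting, apart from 3 called in H2122 (ADM, MXI1 and NRP1) and PECAM1, a called endothelial marker. LDHA in A549 was -0.0049 without the low cell cycle controls and -0.023 with centring. HK2 in A549 was -0.015 with quantile normalization and -0.037 to 0.24 with 1 array left out, lowest without LKB1 replicate 2. VEGFA in H2122 was -0.012 with the block, -0.030 with centring, -0.010 with quantile normalization, and -0.34 to 0.35 with 1 array left out. The difference between lines for VEGFA was -0.24 with source names and -0.011 to 0.67 with 1 array left out. With source names in H2122 EPAS1 was 0.16, ADM -0.011, MXI1 0.0035, NRP1 -0.074 and PECAM1 0.069.

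Limits are the small groups, with 2 pBABE arrays in H2122, and labels of 5 arrays that conflict with the source name or with STK11. Further limits are log2 levels with no detection calls, and RNA as the only measure of factors controlled as protein.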
